A study of Mus musculus with 10 samples.

Results

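The genes described here encode the subunits of the respiratory chain and of ATP synthase that are made from nuclear DNA. They were taken from the deposited table by symbol, from the Nduf, Sdh, Uqcr, Cox4 to Cox8 and Atp5 names, leaving out pseudogenes marked as such, and 88 of 29657 genes met the rule. They fell into complex I with 41 genes, complex II with 4, complex III with 8, complex IV with 17 and complex V, the ATP synthase, with 18. Values were FPKM, fragment counts scaled to transcript length and to the size of the library, from whole livers of 10 C57BL/6 mice. All 10 mice were fed CDAHFD, a choline-deficient, amino acid-defined, high-fat diet that produces fatty liver with inflammation and fibrosis, for 8 weeks. The 5 control mice, with the genotype label WT, had been given AAV8-NC, an adeno-associated virus used as the negative control. The other 5 had been given AAV8-TBG-galectin-3, and the label gives their genotype as a hepatocyte-specific knockdown of galectin-3. TBG is a promoter active in hepatocytes. The insert of that vector, the sex and the age of the mice were not given in the sources used here, and nothing in the labels separates the libraries by batch.

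Lgals3, which encodes galectin-3, did not follow the label. It stood at 70.8 ± 22.9 FPKM in control libraries and 74.2 ± 20.1 FPKM in the others (mean ± SD, n = 5 each, as in all such values here), with ranges of 42.2 to 105 and 41.9 to 90.8 FPKM. Its log2 fold change was 0.08 (SE 0.25, limma adjusted p = 0.856). Exact permutation of the labels, two-sided on FPKM, gave p = 0.825, where 0.00794 was the smallest p possible. Leaving out control 5 gave -0.09, and leaving out labelled knockdown 2 gave -0.01. The highest value among the fits without 1 library lay above 0.08. The second group is therefore called the libraries labelled knockdown, and each direction given here rests on the labels. Whole liver also holds Lgals3 transcripts of cells other than hepatocytes. The libraries had 21653 to 23079 genes above 0, and the depth behind the FPKM is unknown. Hepatocyte markers summed to 35094 to 39264 FPKM in control libraries and 30664 to 39364 FPKM in those labelled knockdown.

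Oxidative phosphorylation moves electrons from NADH through complex I, or from succinate through complex II, to ubiquinone, then through complex III and cytochrome c to complex IV, which reduces oxygen. Complexes I, III and IV pump protons, and ATP synthase uses the gradient to make ATP. Each of these, other than complex II, joins nuclear subunits with subunits encoded in mitochondrial DNA, and much of the mass of complex I consists of accessory subunits that surround a catalytic core. In hepatocytes the chain serves fatty acid oxidation, gluconeogenesis and the urea cycle.

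Promoters of such genes are known for binding sites of the factors NRF-1, GABP, YY1 and ERR, and the window around the start site was examined for 68 of the 88 genes, the ones with an entry in the RefSeq promoter table. The window ran from 250 bases before to 50 bases after the start, build GRCm38.p6, and was searched on both strands. For 57 of the 68 genes the first 25 bases after the start lay in a GENCODE M21 transcript of the gene. The first listed window of each member was used, while the comparison took every window listed. The NRF-1 core GCGCANGCG was found in 20 of 68 windows (29.4%), against 6.25% of the 32851 windows of the table. The GABP site CCGGAAG was found in 16 (23.5%, against 8.86%), the YY1 core AAGATGGC in 9 (13.2%, against 2.75%), and the ERR site TCAAGGTCA in 2 (2.94%, against 0.423%). Any of the 4 was present in 38 windows (55.9%, against 16.3%). Each window was counted once, and overlap between motifs was allowed. Among members higher in the labelled knockdown libraries 19 of 32 windows held at least 1 of these motifs (59.4%), and among tested members that were not higher 19 of 33 did (57.6%). These are counts of letter matches, not of binding, and no test of the difference was made. The 250 bases before the start are shown for 3 genes that were higher, Ndufa8 of complex I at chr2:36049339-36049588, Cox6a1 of complex IV at chr5:115348959-115349208 and Atp5pd of ATP synthase (Atp5h in RefSeq) at chr11:115419920-115420169, and for Sdha of complex II, which was lower, at chr13:74350241-74350490. All 4 come from the 20 windows with the NRF-1 core and are not typical of the members. By complex, the core was in 8 of 32 windows of complex I, 2 of 3 of complex II and 2 of 5 of complex III. It was in 1 of 12 windows of complex IV, that of Cox6a1, and in 7 of 16 of complex V. The 4 windows shown hold the same NRF-1 core in genes on both sides of the comparison, at different distances from the start. All 4 lie on the minus strand and are written 5′ to 3′, with capitals for the NRF-1 core on either strand and for the GABP site on either strand.
Ndufa8: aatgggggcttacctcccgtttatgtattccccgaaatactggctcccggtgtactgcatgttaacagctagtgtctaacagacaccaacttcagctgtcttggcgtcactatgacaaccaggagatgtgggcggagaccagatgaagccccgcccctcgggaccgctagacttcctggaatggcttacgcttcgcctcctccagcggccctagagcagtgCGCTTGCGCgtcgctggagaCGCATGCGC
Cox6a1: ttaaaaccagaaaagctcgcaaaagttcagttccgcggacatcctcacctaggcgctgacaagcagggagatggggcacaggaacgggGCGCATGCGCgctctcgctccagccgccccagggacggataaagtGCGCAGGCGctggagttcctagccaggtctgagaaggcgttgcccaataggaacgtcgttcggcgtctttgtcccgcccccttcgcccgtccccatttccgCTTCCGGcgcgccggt
Atp5pd: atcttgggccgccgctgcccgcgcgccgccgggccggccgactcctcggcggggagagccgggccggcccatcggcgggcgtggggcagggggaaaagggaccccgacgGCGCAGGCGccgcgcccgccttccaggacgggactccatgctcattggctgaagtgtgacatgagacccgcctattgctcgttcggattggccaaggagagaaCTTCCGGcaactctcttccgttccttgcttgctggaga
Sdha: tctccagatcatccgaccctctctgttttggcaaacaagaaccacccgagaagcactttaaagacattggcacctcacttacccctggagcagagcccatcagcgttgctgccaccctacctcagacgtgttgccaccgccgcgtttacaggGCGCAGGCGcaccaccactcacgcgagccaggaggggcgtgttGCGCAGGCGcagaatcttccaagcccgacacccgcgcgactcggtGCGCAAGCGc

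Across the chain, transcripts of many subunits were higher in the labelled knockdown libraries, among them most accessory subunits of complex I and most small subunits of complex III. Of the 88 genes, 84 passed the minimum of 0.5 FPKM in at least 5 libraries. Of these 84, 41 were higher, 2 were lower and 41 did not pass the test (limma on log2(FPKM + 1), adjusted p under 0.05 over all 13471 tested genes). Of all tested genes, 7.13% were higher and 9.65% lower by the same rule. The 84 members had a median log2 fold change of 0.29, from -0.40 to 0.75, where all tested genes had a median of -0.04, and 73 of the 84 were above 0. The groups did not overlap for 34 members with the labelled knockdown libraries above and for 4 with them below, where the same held for 5.66% and 7.48% of all tested genes. For the 41 higher members, 5 of 5 labelled knockdown libraries lay above the control mean. The call was made on these same libraries and largely fixes this, so it adds no support. In whole liver, fewer cells of a type and less RNA per cell cannot be told apart.

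**Figure D1:**
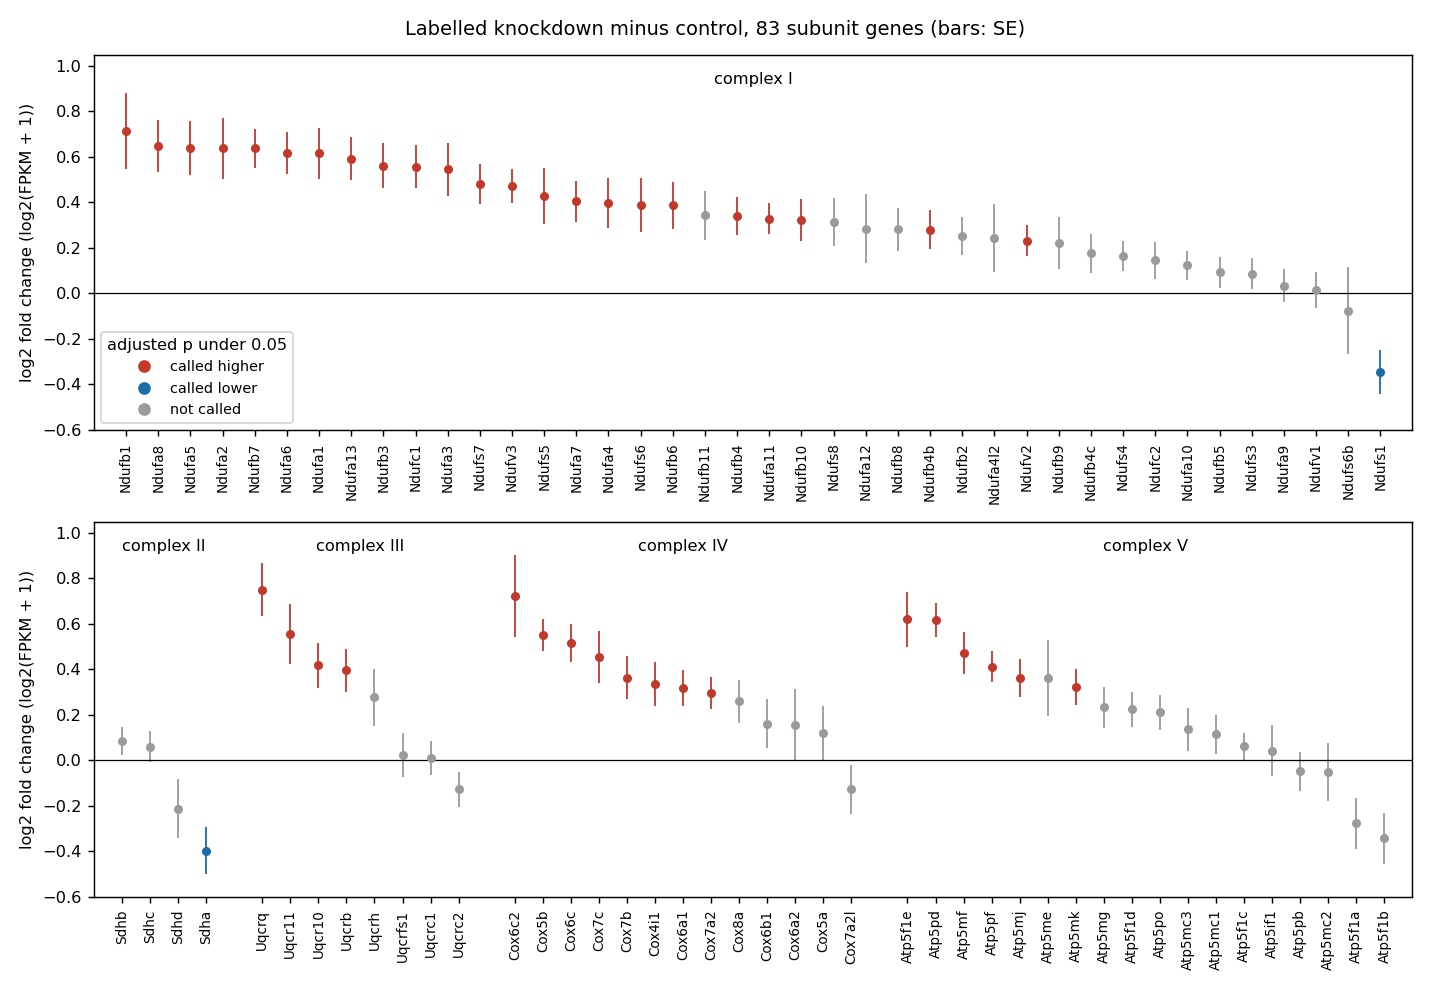
Log2 fold change (labelled knockdown minus control, on the log2(FPKM + 1) scale) of 83 of the 84 tested subunit genes, ordered by size within each complex, with the SE as bars and colour for genes past an adjusted p of 0.05. The 41 higher genes run up to 0.75 in Uqcrq, and the 2 lower ones are Ndufs1 and Sdha.

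These counts depended on transcript length and on single libraries. After the trend of each library with the length of the principal transcript was removed, 21 of 83 members were higher and 0 lower. Of all 13187 genes with a length, 6.28% were higher and 5.1% lower after the same removal. At an unadjusted limma p under 0.05, 36 members were higher and 3 lower. The share of all tested genes at that unadjusted level is not given here. Counts at that level, here and below, are therefore no result about the members or lists. Without control 2, 26 members were higher. Calls over all genes fell as well in that fit, to 492 higher and 533 lower of 13303, from 960 and 1300 of 13471. The number of members lower was 0 without control 2, 3 or 4 and 1 without control 5, labelled knockdown 3 or labelled knockdown 5. Of the 41 higher members, 25 were called in all 10 fits with a library left out, and 7 were called in 5 or fewer. With median-of-ratios scaling, 40 members were higher and 0 lower, while all tested genes went from 960 higher and 1300 lower to 1212 higher and 1020 lower. With values rescaled without mitochondrially encoded genes, 38 members were higher and 3 lower, and all tested genes stood at 731 higher and 1573 lower.

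Complex I, the entry point for electrons from NADH, had 23 of 41 members higher and 1 lower, with a median log2 fold change of 0.33. The accessory subunits, which hold no redox centre of the electron path, made up most of this. Of 29 accessory subunits 19 were higher and 0 lower (0 also at an unadjusted limma p under 0.05), with a median of 0.39. Ndufa6 (ENSMUSG00000022450), an accessory subunit that binds the mitochondrial acyl carrier protein, held 28.9, 30.3, 26.2, 27.9 and 23.5 FPKM in control libraries 1 to 5. It held 47.9, 43.0, 40.6, 36.8 and 44.2 FPKM in labelled knockdown libraries 1 to 5, so the lowest of these lay above the highest control. The means were 27.4 ± 2.63 and 42.5 ± 4.12 FPKM (SD, n = 5), with a log2 fold change of 0.62 (SE 0.09, limma adjusted p = 0.00684).

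Ndufb7 (ENSMUSG00000033938), an accessory subunit on the intermembrane side, held 10.1, 9.63, 9.70, 11 and 10.3 FPKM in control libraries and 16.9, 15.3, 17.2, 13.7 and 18.9 FPKM in labelled knockdown libraries. Its log2 fold change was 0.64 (SE 0.09, limma adjusted p = 0.00629), and here too the groups did not overlap. Ndufa8 (ENSMUSG00000026895), another subunit on that side and the gene of the first promoter shown, went from 83.3 ± 8.74 to 132 ± 20.8 FPKM (log2 fold change 0.65). Its control libraries held 94.0, 86.8, 72.2, 86.7 and 76.6 FPKM, and its labelled knockdown libraries 141, 111, 131, 114 and 162 FPKM. Ndufa13, a membrane-arm subunit also known as a cell death regulator, went from 33.6 ± 3.32 to 51.3 ± 5.64 FPKM. Ndufv3, which sits beside the NADH-binding site, went from 9.99 ± 0.927 to 14.2 ± 0.756 FPKM. Both were higher in every labelled knockdown library than in any control library. Ndufb1 had the largest log2 fold change of complex I, 0.71 (SE 0.17, limma adjusted p = 0.0197), at a low level of 4.32 ± 1.40 against 7.53 ± 1.08 FPKM. Ndufc1, Ndufb3, Ndufa1, Ndufa5, Ndufa2 and Ndufa3, all accessory subunits, rose as well, with log2 fold changes of 0.56, 0.56, 0.62, 0.64, 0.64 and 0.55.

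The 7 core subunits, which carry the flavin, the iron-sulphur clusters and the quinone site, moved in both directions. Their median was 0.09, with 2 higher, 1 lower and 4 that did not pass the test. Their transcripts are longer, with a median principal length of 1623 bases against 763 bases for the accessory subunits. Ndufs7, which holds the iron-sulphur cluster next to the quinone site, held 31.7, 29.5, 31.4, 32.8 and 33.2 FPKM in control libraries and 43.5, 42.4, 47.5, 38.3 and 52.5 FPKM in labelled knockdown libraries (log2 fold change 0.48, SE 0.09, limma adjusted p = 0.00947). Ndufv2, a core subunit with an iron-sulphur cluster, was the other higher one, from 30.7 ± 1.61 to 36.2 ± 2.11 FPKM, and its call was kept in 3 of the 10 fits without 1 library. Ndufs1 (ENSMUSG00000025968), the largest core subunit, went the other way. Its control libraries held 13.1, 13.8, 13.9, 13.4 and 14.8 FPKM, and its labelled knockdown libraries 7.99, 11.4, 11.7, 11.2 and 11.4 FPKM. All 5 labelled knockdown libraries lay below the control range, and labelled knockdown 1 lay far below the other 4. The log2 fold change was -0.35 (SE 0.10, limma adjusted p = 0.0353), and -0.25 without labelled knockdown 1 (adjusted p = 0.0360). The call was lost without control 2, 3, 4 or 5 or labelled knockdown 5, with an adjusted p of up to 0.0735, and after removal of the length trend (adjusted p = 0.113). Ndufs3, Ndufs8 and Ndufv1 had log2 fold changes of 0.09, 0.31 and 0.01 and did not pass.

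Ndufa4, which carries a complex I symbol but is known as a subunit of complex IV, stood at 80.8 ± 12.5 and 106 ± 8.20 FPKM, which gave 0.40 on the log2 scale (SE 0.11, limma adjusted p = 0.0337). Its call was lost without control 1, 2 or 3 or labelled knockdown 2, 3 or 5, with an adjusted p of up to 0.0719. Its relative Ndufa4l2, known as a hypoxia-responsive gene, stood at 1.53 ± 0.487 and 1.98 ± 0.451 FPKM and did not pass (adjusted p = 0.283). Ndufb4, Ndufb4b and Ndufb4c are close copies of each other, as are Ndufs6 with Ndufs6b and Cox6c with Cox6c2, so how the quantification split their reads is uncertain. Of the 41 complex I members, 15 were higher without control 3, the lowest count among the fits without 1 library, and the highest was 25. Over all tested genes, 440 of 13336 were higher without control 3.

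Complex II, succinate dehydrogenase, which belongs to both the citrate cycle and the chain and has no mitochondrially encoded subunit, had 4 genes here. Of these 0 were higher (0 also at an unadjusted limma p under 0.05) and 1 was lower, with a median log2 fold change of -0.08. Of all tested genes 7.13% were higher and 9.65% lower, and 4 genes are too few to set these counts apart from those shares. The median length of their principal transcripts was 2065.5 bases, against 765 bases over all members. Sdha (ENSMUSG00000021577), the flavoprotein that oxidises succinate, held 80.9, 93.2, 97.0, 95.9 and 85.7 FPKM in control libraries. It held 53.0, 70.8, 70.8, 74.3 and 75.5 FPKM in labelled knockdown libraries, all below the lowest control. The means were 90.5 ± 6.96 and 68.9 ± 9.11 FPKM, a log2 fold change of -0.40 (SE 0.10, limma adjusted p = 0.0279), and -0.31 without labelled knockdown 1 (adjusted p = 0.0368). The call was lost without control 2, 3 or 4 or labelled knockdown 3, with an adjusted p of up to 0.0671, and after removal of the length trend (adjusted p = 0.0923).

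Sdhb, the iron-sulphur subunit, stood at 57.3 ± 1.37 and 61.0 ± 2.74 FPKM (log2 fold change 0.09, SE 0.06). Sdhc, a membrane anchor, stood at 42.1 ± 1.31 and 44.0 ± 2.93 FPKM (0.06, SE 0.07). Sdhd, the other anchor, held 87.0, 96.6, 95.8, 105 and 106 FPKM in control libraries and 59.2, 91.6, 95.4, 86.1 and 95.2 FPKM in labelled knockdown libraries (-0.21, SE 0.13). None of these 3 passed the limma test, with adjusted p of 0.359, 0.561 and 0.272. Labelled knockdown 1 was the lowest library of its group for Sdha, Sdhc and Sdhd, and labelled knockdown 4 for Sdhb.

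Complex III, which passes electrons from ubiquinol to cytochrome c, had its calls among the small subunits. Of the 5 small subunits 4 were higher (median log2 fold change 0.42), and of the 3 large ones, both core proteins and the Rieske protein, 0 were higher and 0 lower (0 and 0 also at an unadjusted limma p under 0.05), with a median of 0.01. Of all tested genes 7.13% were higher and 9.65% lower, and 3 large subunits are too few to set their counts apart from those shares. The small subunits also have shorter transcripts, with a median principal length of 535 bases against 1653 bases for the large ones. Uqcrq (ENSMUSG00000044894), a small subunit bound to cytochrome b, had the largest log2 fold change of all 84 tested members. Its control libraries held 66.1, 70.1, 64.5, 76.6 and 49.3 FPKM, and its labelled knockdown libraries 109, 109, 106, 97.2 and 129 FPKM. The groups did not overlap, and the log2 fold change was 0.75 (SE 0.12, limma adjusted p = 0.00778).

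Uqcrb, a small subunit near the ubiquinone site, went from 68.1 ± 6.35 to 89.9 ± 8.54 FPKM (log2 fold change 0.40), with 75.4 FPKM in labelled knockdown 4 against a control maximum of 73.8 FPKM. Uqcr11 went from 66.0 ± 13.0 to 95.8 ± 4.52 FPKM (0.55) and Uqcr10 from 93.2 ± 10.9 to 125 ± 12.1 FPKM (0.42). Their limma adjusted p lay between 0.0201 and 0.0202, and that of Uqcr10 was 0.0522 without control 2. Uqcrh, the hinge protein that meets cytochrome c1, did not pass (0.28, adjusted p = 0.145). Uqcrc2, a core protein, held 66.8, 77.2, 77.3, 74.1 and 75.4 FPKM in control libraries and 59.5, 69.9, 70.3, 71.8 and 67.7 FPKM in labelled knockdown libraries. Its groups overlapped and it did not pass (-0.13, adjusted p = 0.267). Uqcrc1, the other core protein, stood at 58.3 and 58.8 FPKM and the Rieske protein gene Uqcrfs1 at 131 and 133 FPKM, with log2 fold changes of 0.01 and 0.02.

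**Figure D2:**
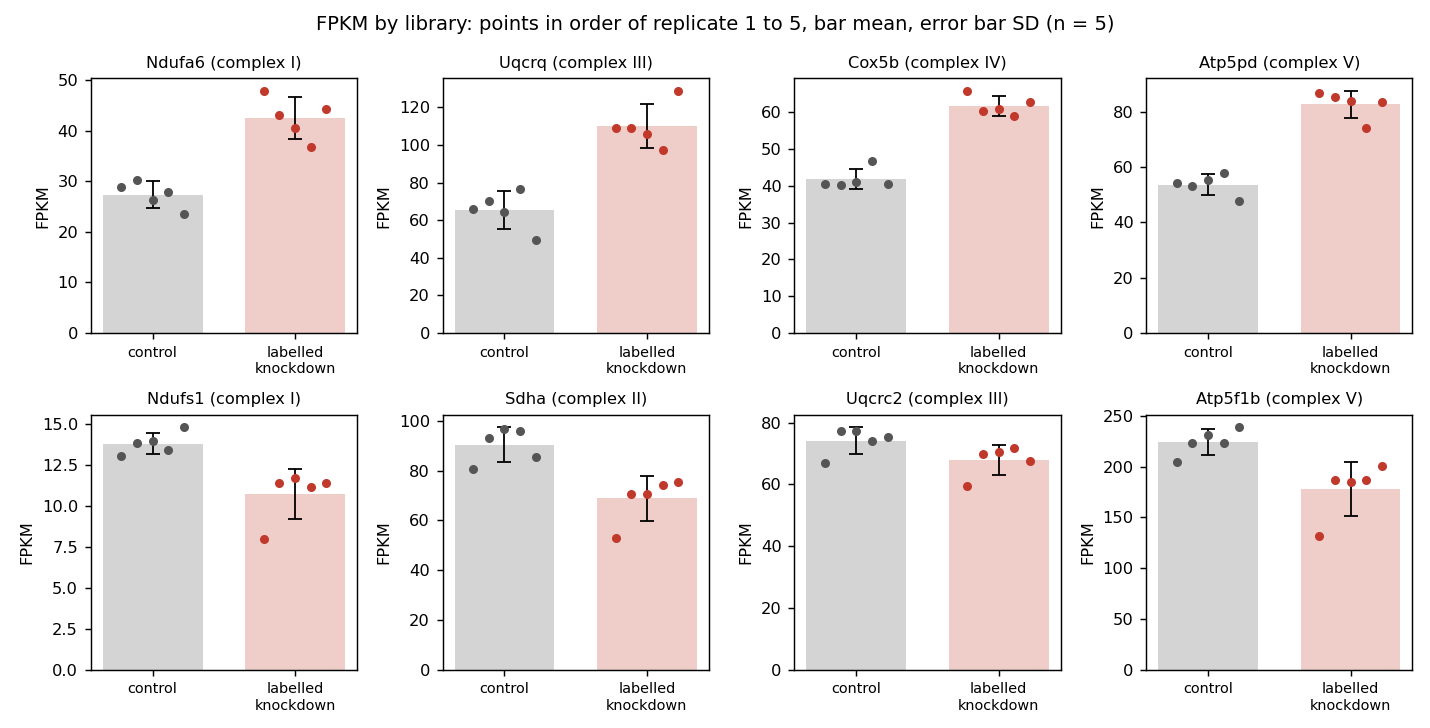
FPKM in each library of 4 subunits that were higher (Ndufa6, Uqcrq, Cox5b, Atp5pd) and of 4 that were lower or did not pass (Ndufs1, Sdha, Uqcrc2, Atp5f1b), with points for replicates 1 to 5, bars for the mean and error bars for the SD of 5 libraries. The higher genes have no overlap between groups, and labelled knockdown 1 is the lowest point in each panel of the lower row.

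Complex IV, cytochrome c oxidase, takes its 3 catalytic subunits from mitochondrial DNA, and its nuclear subunits surround them. Of its 17 genes 13 were tested, 8 were higher and 0 lower (0 also at an unadjusted limma p under 0.05), with a median log2 fold change of 0.32. Cox5b (ENSMUSG00000061518), a zinc-binding subunit on the matrix side, held 40.6, 40.2, 41.2, 46.6 and 40.6 FPKM in control libraries. It held 65.9, 60.3, 60.9, 58.9 and 62.8 FPKM in labelled knockdown libraries, with little spread in either group. The log2 fold change was 0.55 (SE 0.07, limma adjusted p = 0.00518). Cox6c went from 25.6 ± 2.75 to 37.0 ± 2.48 FPKM (0.52, adjusted p = 0.00846). Cox6c2, its copy, had the largest log2 fold change, 0.72, at 0.898 ± 0.531 against 2.07 ± 0.499 FPKM, and its groups overlapped.

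Of the tissue isoforms of this complex, those known from liver were the abundant ones. Cox6a1, the liver form, had the highest level of all members, with 255, 261, 282, 310 and 257 FPKM in control libraries and 351, 344, 338, 324 and 340 FPKM in labelled knockdown libraries (log2 fold change 0.32, SE 0.08, limma adjusted p = 0.0241). The heart and muscle form Cox6a2 stood at 0.627 ± 0.390 and 0.789 ± 0.244 FPKM. Cox4i1, the form found in most tissues, held 138, 141, 147, 172 and 138 FPKM against 162, 185, 188, 180 and 217 FPKM, so control 4 lay above labelled knockdown 1 (0.34, SE 0.10, adjusted p = 0.0363). The lung form Cox4i2 was at 0 in 2 control and 4 labelled knockdown libraries and at no more than 0.205 FPKM in the others. Cox7a2, the liver form, went from 74.4 ± 1.53 to 91.8 ± 6.86 FPKM (0.30), and Cox7a1, the heart and muscle form, averaged 0.154 and 0.404 FPKM. Cox8b, another muscle form, was listed at 0 in all libraries other than labelled knockdown 3, and Cox6b2, known from testis, averaged 0.281 and 0.319 FPKM. Cox4i2, Cox6b2, Cox7a1 and Cox8b are the 4 members left untested.

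Cox7b rose from 40.6 ± 3.45 to 52.6 ± 6.08 FPKM (log2 fold change 0.36). Cox8a (0.26, adjusted p = 0.0793), Cox6b1 (0.16, 0.321) and Cox7a2l (-0.13, 0.442), which is known to join complexes III and IV, did not pass the limma test. The number of calls in this complex varied with the libraries used, and 2 members were higher without control 2, 4 without control 3, and 5 without labelled knockdown 2, 3 or 5. Over all tested genes, 492 were higher without control 2 and 440 without control 3, against 960 in the main fit. Cox4i1 was called in 3 of the 10 fits without 1 library, Cox6a1, Cox7b and Cox6c2 in 6, Cox7a2 in 8, and Cox5b and Cox6c in all 10.

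Complex V, the ATP synthase, had 6 of 18 members higher and 0 lower (2 at an unadjusted limma p under 0.05), with a median log2 fold change of 0.22. Of the 6, 2 belonged to the peripheral stalk, which holds the catalytic head still, 3 to the small membrane subunits and 1 to the catalytic head. Atp5pd (ENSMUSG00000034566), a stalk subunit and the gene of the third promoter shown, held 54.2, 53.1, 55.2, 57.9 and 47.7 FPKM in control libraries. It held 86.8, 85.3, 83.7, 74.2 and 83.6 FPKM in labelled knockdown libraries, where labelled knockdown 4 was the lowest but still above every control. The log2 fold change was 0.62 (SE 0.08, limma adjusted p = 0.00518). Atp5pf, the coupling factor of the stalk, went from 31.8 ± 1.9 to 42.6 ± 1.97 FPKM (0.41, adjusted p = 0.00852). The other 2 stalk genes, Atp5pb and Atp5po, had log2 fold changes of -0.05 and 0.21 and did not pass.

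Of the 5 membrane accessory subunits, which shape the dimer of the enzyme, 3 were higher. These were Atp5mf (19.5 ± 1.67 to 27.5 ± 3.29 FPKM, log2 fold change 0.47), Atp5mj (0.36) and Atp5mk (7.26 ± 0.593 to 9.34 ± 0.837 FPKM, 0.32), and the call of Atp5mk was lost without control 2 or 3 (limma adjusted p = 0.0558 and 0.0579). In the catalytic head 1 of 5 subunits was higher, Atp5f1e, a small subunit of its central stalk, from 24.1 ± 3.01 to 37.8 ± 6.70 FPKM (0.62, adjusted p = 0.0113). Atp5f1b, the catalytic beta subunit, held 205, 223, 231, 223 and 239 FPKM in control libraries and 132, 186, 185, 187 and 201 FPKM in labelled knockdown libraries. Its labelled knockdown range lay below the control range, labelled knockdown 1 was far below the rest, and it did not pass (log2 fold change -0.34, SE 0.11, limma adjusted p = 0.0559). Atp5f1a, its partner alpha subunit, stood at 241 ± 11 and 201 ± 30.3 FPKM, also without overlap, and did not pass (-0.28, adjusted p = 0.108). The 3 genes of the proton-carrying c ring and the inhibitor gene Atp5if1 were neither higher nor lower (0 and 0 also at an unadjusted limma p under 0.05). Their log2 fold changes ran from -0.05 to 0.14, and so few genes cannot be set apart from the shares of all tested genes, 7.13% higher and 9.65% lower.

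The level of each complex was also summarised per library. For each library the median departure of a complex from the gene means was taken on the log2(FPKM + 1) scale. Over all tested members it ran from -0.20 to -0.01 in control libraries and from 0.06 to 0.24 in labelled knockdown libraries. In complex I the ranges were -0.22 to -0.05 and 0.07 to 0.29, and in complex V -0.16 to -0.01 and 0.04 to 0.19. In complex III they were -0.22 to -0.03 and 0.01 to 0.26. Control 4 was the highest control library in each of the 5 complexes, and labelled knockdown 5 the highest of its group in each. In complex IV control 4 stood at 0.03 and labelled knockdown 4, the lowest of its group, at 0.07. Complex II overlapped between groups, from -0.03 to 0.11 and from -0.32 to 0.10, with labelled knockdown 1 at -0.32. The members together took 1.14 ± 0.05% of all FPKM in control libraries and 1.26 ± 0.09% in labelled knockdown libraries, with ranges of 1.09 to 1.22% and 1.13 to 1.37% that overlapped. Labelled knockdown 1 was at 1.13%, and 21.7% of its FPKM came from mitochondrially encoded genes, where the other 9 libraries had 13.0 to 16.9%.

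**Figure D3:**
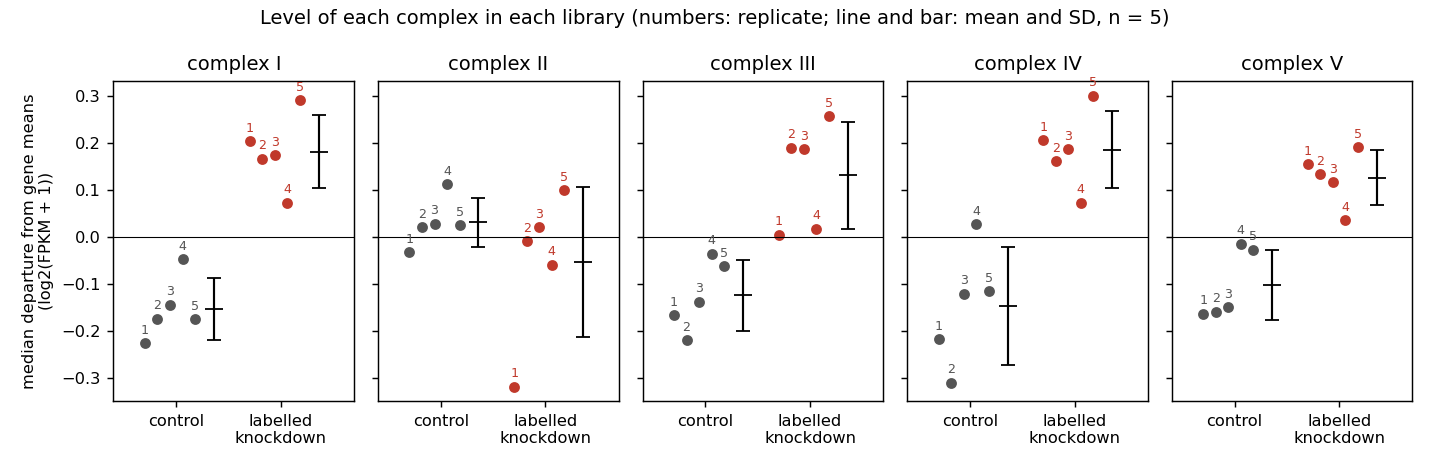
Median departure of each complex from the gene means (log2(FPKM + 1)) in each of the 10 libraries, numbered by replicate, with the mean and SD of 5 libraries beside the points. Control and labelled knockdown libraries are apart in complexes I, III, IV and V and overlap in complex II, where labelled knockdown 1 stands at -0.32.

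Transcript length moved with the groups, and most subunit transcripts are short. Per doubling of the length of the principal transcript, a library's values departed from the gene means by 0.04 ± 0.01 in control libraries and by -0.04 ± 0.02 in labelled knockdown libraries (log2 scale, SD, n = 5), with no overlap. Of the 2640 tested genes in the shortest length class, 38 to 1269 bases, 17.3% were higher and 2.01% lower, with a median log2 fold change of 0.15. In the longest class, from 4469 bases, 2.01% were higher and 17.8% lower. Of the 83 tested members with a known length 64 fell in the shortest class, and 37 of these were higher (57.8%, median 0.34). In the next class, 1270 to 2120 bases, 3 of 13 members were higher (23.1%), against 8.43% of all genes there, and the members' median was 0.02. The 3 members of the middle class, 2121 to 3072 bases, included both lower ones, Ndufs1 at 2661 bases and Sdha at 2900 bases, where 4.17% of all genes were higher and 9.48% lower, and in the classes above it 0 of 3 members were called. Across the 83 members, log2 fold change and log2 length had a Pearson r of -0.51 and a Spearman rho of -0.47, given as a description, since the members share the 10 libraries. Over all 13187 genes with a length the values were -0.32 and -0.35.

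**Figure D4:**
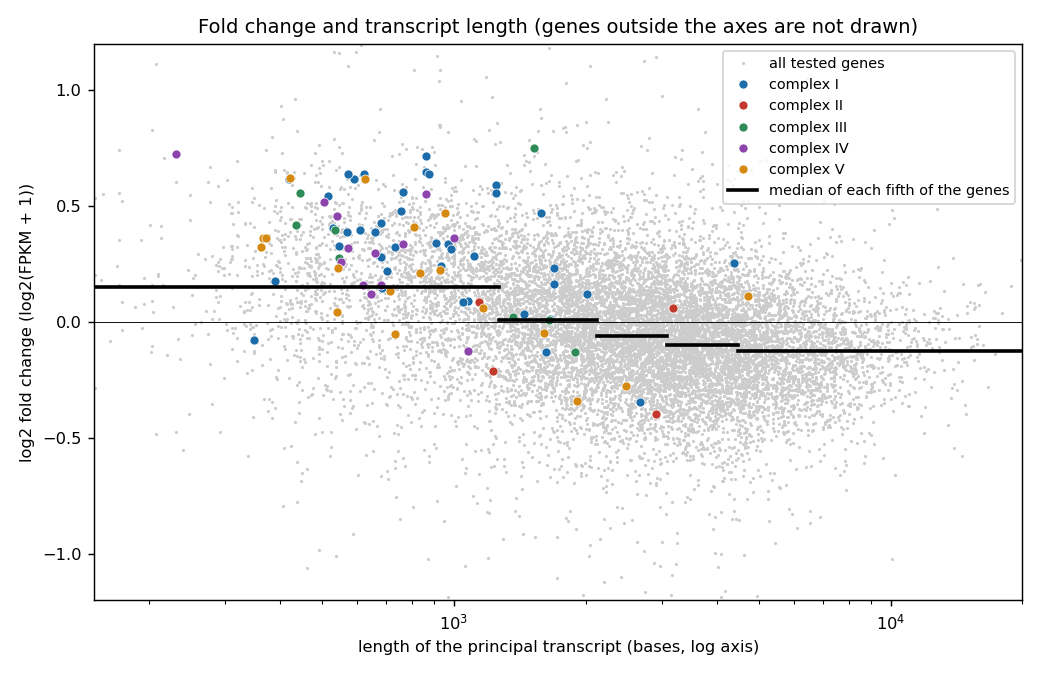
Log2 fold change against the length of the principal transcript (log axis, bases) for tested genes in grey and subunit genes by complex, with black lines for the median of each of 5 length classes. Most subunit genes lie among the shortest transcripts, where the median of all genes is 0.15, and the members there have a median of 0.34.

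With the length trend of principal transcripts removed from each library, 21 members were higher, where 6.28% of all 13187 genes were higher and 5.1% lower. The members' median log2 fold change was 0.18, and 59 of 83 were above 0, with a median of 0.00 over all genes. Among the 83 members a relation with length remained after this removal, with a Pearson r of -0.26 and a Spearman rho of -0.26. Among the members length also goes with subunit class, and the part of length in the remaining calls was not tested. With the longest transcript of each gene used instead, 22 members were higher and 0 lower, with a median of 0.20, where 6.78% of all genes were higher and 5.46% lower. For several members the longest annotated transcript is far longer than the principal one, such as 4435 against 623 bases in Ndufb7 and 3038 against 503 bases in Cox6c. Of the 40 higher members with a length, 20 were called after both removals. These were 13 of complex I (Ndufb7, Ndufa6, Ndufa13, Ndufv3, Ndufc1, Ndufb3, Ndufa8, Ndufs7, Ndufa1, Ndufa5, Ndufa2, Ndufa3 and Ndufb1), Uqcrq of complex III, Cox5b and Cox6c of complex IV, and Atp5pd, Atp5pf, Atp5f1e and Atp5mf of complex V. After removal of the principal length trend, their log2 fold changes lay between 0.28 in Atp5pf and 0.71 in Uqcrq, with limma adjusted p of 0.0106 to 0.0488. Ndufb2, a complex I subunit, was higher only after removal (0.37, limma adjusted p = 0.0308, against 0.25 and 0.0621 before). The principal transcript assigned to it has 4371 bases and is also its longest annotated one. Its call rests on that length, which was not checked against these libraries. Ndufb2 was chosen after its value was seen.

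By complex, 14 members of complex I, 0 of complex II, 1 of complex III, 2 of complex IV and 4 of complex V were higher after removal of the principal length trend, with medians of 0.22, -0.14, 0.17, 0.15 and 0.10. In complex II 0 members were higher at an unadjusted limma p under 0.05 either. Its 4 genes are too few to set this apart from the 6.28% of all genes higher after this removal. Of the accessory subunits of complex I, 13 of 29 were higher, with a median of 0.24. Of the 7 core subunits 1 was higher, with a median of -0.01. In complex III, 1 of 5 small and 0 of 3 large subunits were higher, with medians of 0.24 and -0.03. The library medians of complex I still did not overlap, at -0.17 to -0.01 and 0.01 to 0.26, while those of complexes III, IV and V overlapped. How the length trend arose in these libraries was not tested.

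**Figure D5:**
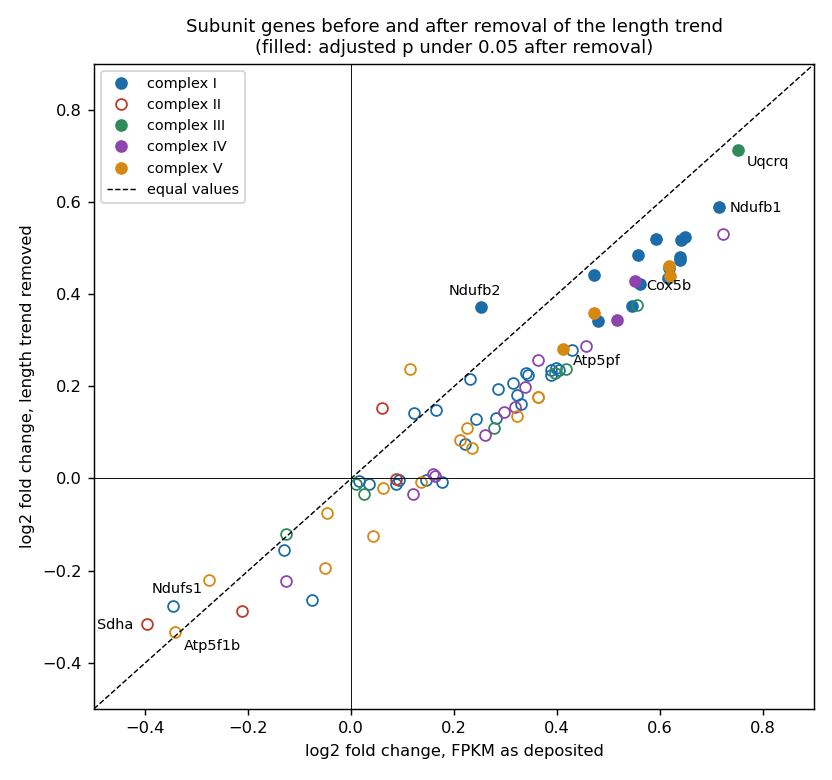
Log2 fold change of the 83 subunit genes with a known length before (x axis) and after (y axis) removal of each library's trend with the length of the principal transcript, filled where the adjusted p was under 0.05 after removal. Most points lie under the line of equal values, and 21 genes, among them Uqcrq, Ndufb1 and Cox5b, are filled.

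The rule misses a few subunits by name. Ndufab1, the acyl carrier protein held by complex I, was higher (7.39 to 8.57 FPKM in control and 8.81 to 11.2 FPKM in labelled knockdown libraries, log2 fold change 0.26, limma adjusted p = 0.0406), as was Dmac2l, a coupling protein of ATP synthase (4.25 ± 0.887 to 5.96 ± 0.673 FPKM, 0.42, adjusted p = 0.0353). These calls were kept in 2 and 4 of the 10 fits without 1 library, and that of Dmac2l was lost after removal of the principal length trend (limma adjusted p = 0.0588). Cyc1, the cytochrome c1 of complex III, stood at 73.4 ± 2.30 and 73.2 ± 5.78 FPKM (-0.01). The 13 subunits encoded in mitochondrial DNA all had a log2 fold change above 0, with a median of 0.29, but only mt-Nd3 of complex I passed the limma test (0.54, adjusted p = 0.0415, kept in 2 of 10 fits), and after removal of the principal length trend 0 passed (1 at an unadjusted p under 0.05), with a median of 0.16.

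Other genes of the pathway are given beside the shares of all tested genes, 7.13% higher and 9.65% lower, and counts near these shares are no result about a list. Of 23 tested electron carriers, quinone synthesis genes and other quinone-reducing enzymes, 0 were higher (2 at an unadjusted limma p under 0.05) and 3 lower, with a median log2 fold change of 0.00. The lower ones were Sqor, which oxidises sulphide (29.4 ± 1.77 to 23.7 ± 1.53 FPKM, -0.30), Chdh, which oxidises choline (28.2 ± 2.02 to 20.6 ± 2.43 FPKM, -0.44), and the quinone synthesis gene Coq8b (-0.30). Cycs, cytochrome c, did not pass (0.11, adjusted p = 0.368). Of the 14 citrate cycle enzymes 1 was higher, Idh3a (0.26), and 3 were lower, Dld (34.4 ± 2.38 to 25.2 ± 3.53 FPKM, -0.44), Suclg1 (-0.39) and Sucla2 (-0.36), with a median of -0.10. The calls of Idh3a, Sucla2 and Coq8b were kept in 3 of the 10 fits without 1 library. Sucla2 and Coq8b lost theirs after removal of the principal length trend (limma adjusted p = 0.0845 and 0.103). Sdha, the lower member of complex II, is an enzyme of this cycle too. Of the 6 phosphate, ADP/ATP and outer membrane carriers 0 were higher and 0 lower (0 and 0 also at an unadjusted limma p under 0.05).

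Among regulators of nuclear mitochondrial genes, 0 of 10 tested were higher and 1 was lower, where 7.13% and 9.65% of all tested genes were. At an unadjusted limma p under 0.05, 0 were higher and 2 lower. Ppara, the nuclear receptor that drives fatty acid oxidation genes in liver, stood at 8.88 ± 2.0 and 4.90 ± 1.48 FPKM, a log2 fold change of -0.75 (SE 0.18, limma adjusted p = 0.0224), and its call was lost without control 3 or labelled knockdown 5 (adjusted p = 0.0545 and 0.0504) and after removal of the principal length trend (-0.65, adjusted p = 0.0502). The coactivator gene Ppargc1a (1.37 ± 0.346 and 1.27 ± 0.354 FPKM) and the genes of the factors whose motifs were searched, Nrf1 (1.17 ± 0.126 and 1.3 ± 0.157 FPKM), Gabpa (8.53 ± 0.93 and 7.61 ± 0.708 FPKM) and Esrra (7.46 ± 1.10 and 8.11 ± 0.690 FPKM), did not pass. Of 11 genes of mitochondrial DNA maintenance and transcription 2 were higher, the mitochondrial RNA polymerase gene Polrmt (0.27) and the single-strand binding protein gene Ssbp1 (0.30), with calls kept in 0 and 8 of the 10 fits without 1 library. Tfam, which packs mitochondrial DNA, did not pass (-0.09, adjusted p = 0.412).

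Markers of liver cell types were counted against the same shares of all tested genes, 7.13% higher and 9.65% lower, and their part in the subunit values was not tested. Of 8 hepatocyte markers 1 was higher, Ttr (log2 fold change 0.40), and 4 were lower, Apob, Cps1, Ass1 and Hnf4a (-0.54, -0.71, -0.64 and -0.42). Of 7 tested Kupffer cell and macrophage markers 2 were lower, Adgre1 and Cd5l, with a median of -0.65 and sums of 388 to 669 FPKM in control libraries and 256 to 515 FPKM in labelled knockdown libraries. Of 8 stellate cell and myofibroblast markers 2 were lower, Col1a1 and Reln, with sums of 47.0 to 65.1 and 23.7 to 55.1 FPKM, and of 6 endothelial markers 1 was lower, Pecam1, with sums of 14.6 to 24.5 and 12.6 to 17.5 FPKM. After removal of the principal length trend, Ttr, Col1a1 and Pecam1 were no longer called (limma adjusted p = 0.0720, 0.0789 and 0.143), which left 0 endothelial markers. Of 5 tested cholangiocyte markers 0 passed (2 were lower at an unadjusted limma p under 0.05), with sums of 126 to 365 and 41.7 to 295 FPKM. Lymphocyte and neutrophil markers had 2 tested genes each and 0 past the test (0 also at an unadjusted p under 0.05), with sums of 1.75 to 5.26 FPKM and 3.79 to 9.84 FPKM over all libraries. Markers of skeletal muscle and brown fat, tissues rich in these subunits, summed to no more than 0.304 FPKM in any library, and 0 of 5 reached the minimum for testing.

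In the authors' deposited table, 42 of the members had a q-value under 0.05 and 0 carried the mark of significance given to 398 genes. The share of all genes with such a q-value is not given here, so the 42 is no result about the members. Among the 84 tested members, the largest fold ratio in the authors' deposited table was 2.31, that of Cox6c2.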

How the data were processed

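Whole-liver poly(A) RNA of 10 mice, 5 per group by the sample titles, was sequenced from strand-marked (dUTP) libraries, per the labels' protocols. Per the submitters' processing notes, reads went through cutadapt 1.9, HISAT2 2.0.4 and StringTie 1.3.4d. Those notes name the human build GRCh38, while the identifiers in the table are mouse ones, so the build behind the values is unsure, and the only positions given are those of RefSeq promoters; no source used here gives the strand setting. Nothing says how the mice were allotted, so p-values measure the spread between these libraries. Per the file headers, the deposited values are FPKM, 1 column a library. The authors' own comparison stands beside them as a deposited fold ratio, its log2 and a p-value and q-value; no source used here names their test.

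The plan preferred a count model, but the share of low values that were whole multiples of a common step was only 13.8 to 17.1% (tolerance 0.02), so whole reads were not recovered and depth is unknown. Genes with at least 0.5 FPKM in at least 5 libraries were compared as log2(FPKM + 1) (changes of low genes come out too small on this scale) with limma 3.58.1 in R 4.3.3 (mean-variance trend, two-sided, Benjamini-Hochberg over 13471 genes, called at 0.05). The fit was tested on simulated data. Of all pairs of libraries 0 were identical, and 0 columns of sample values went unused. Length trends were removed with a natural spline of 4 degrees of freedom on log2 length of the GENCODE M21 transcript, matched by Ensembl identifier for 97.9% of tested genes. Promoters came from RefSeq (GRCm38.p6). The values of 1 member are not reported here, though it is in all counts and medians.

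The members and lists were chosen with earlier results of these data known. Named in full were, per complex, up to 4 called members in each direction by p (or the 2 with the smallest p), the lowest log2 fold change, all Sdh genes, tissue isoforms, and members called after removal of the length trend. Subunit roles were assigned, and other members named for their role, after values were seen. Alternatives were other pseudocounts, filters, scalings, weights and moderation, a replicate block, GC and length trends, and leaving out each library.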

Additional observations from a re-analysis of the deposited data

Results flagged for a closer look

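A library stood far from the other 4 of its group in 11 of 103 checks. About 1 in 20 would do so by chance if the checks were independent and the values normally distributed. The checks share the same 10 libraries and include genes listed at 0, so no excess over chance is read from the count. The measure was the gap to the nearest library over the range of the group, with a limit of 0.71 for 5 libraries. Several of these share labelled knockdown 1. It was low for Sdha at 53.0 FPKM (others 70.8 to 75.5), Ndufs1 at 7.99 FPKM (11.2 to 11.7), Atp5f1b at 132 FPKM (185 to 201) and Sdhd at 59.2 FPKM (86.1 to 95.4). Labelled knockdown 4 was low for Atp5pd at 74.2 FPKM (83.6 to 86.8) and Uqcrb at 75.4 FPKM (91.0 to 98.0). Control 4 was high for Cox5b at 46.6 FPKM (40.2 to 41.2) and Ndufc1 at 11.4 FPKM (10.6 to 10.8). Labelled knockdown 5 was high for Ndufb1 at 9.42 FPKM (6.76 to 7.33). The untested muscle and lung isoforms Cox8b, at 0.144 FPKM, and Cox4i2, at 0.0577 FPKM, were above 0 in labelled knockdown 3 and listed at 0 in the other 4 libraries of that group.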

How the results depend on the processing

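The number of members called higher was 22 with the longest-transcript length trend removed and 17 with that and a replicate block, 21 with the principal-transcript trend removed and 12 with that and a block, and 26 to 45 without 1 library. The number lower was 0 with no filter on low values, with median-of-ratios scaling and under all 4 length removals, 1 with the GC trend removed, and 0 to 2 without 1 library. Over all tested genes, 440 to 954 were higher and 533 to 1733 lower without 1 library, against 960 and 1300 in the main fit. In the same order of length removals, 14, 9, 14 and 8 members of complex I, 1, 1, 1 and 1 of complex III, and 2, 2, 2 and 1 of complex IV were higher, and 2 of complex V under the last. Complex IV had 4 with no filter and 4 with a replicate block. Without 1 library the range was 15 to 25 in complex I, 2 to 8 in complex IV. The medians were 0.20 and 0.18 over all members after the longest and the principal removal, 0.23 and 0.22 in complex I, 0.19 and 0.17 in complex III, and 0.16 and 0.15 in complex IV, with or without a block, and 0.10 in complex V after the principal removal. Lgals3 ranged from -0.093 to 0.26 without 1 library. Sdhb turned from 0.09 to -0.00054 after the principal removal. Of 55 single genes, the other settings left 695 values on their side of the threshold, 122 lost it, 5 gained it and 2 changed sign; without 1 library, 451 stayed and 99 lost it. The 2 principal-transcript alternatives were chosen after seeing the data. The cause of these changes was not tested.

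Same-numbered libraries deviated from the group means with correlations of 0.11, 0.02, 0.08, -0.01 and 0.05, so the numbers were not taken as pairing; only control 1 had its own number as best partner. With a replicate block, 31 members were higher and 3 lower. The count models were not run, since no counts could be had.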
